A study of Mus musculus with 59 samples.

Results

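The trophic factors of motor neurons and the receptors that read them were followed in embryoid bodies exposed to mouse serum. The 10 genes, chosen by symbol from 19613 genes on the arrays, were the factors Gdnf and Bdnf, the GDNF receptor chains Gfra1 and Ret, the neurotrophin receptors Ngfr, Ntrk2 and Ntrk3, the cytokine receptor chains Cntfr and Lifr, and the insulin-like growth factor receptor Igf1r. All 10 were found once in the deposited values. The embryoid bodies were grown from HBG3 HB9 mouse ES cells, a line with a green fluorescent reporter under the HB9 promoter, and contained motor neurons among other cells. They were held for 24 h with serum of pre-symptomatic male mice hemizygous for a mutant human SOD1 transgene (carrier, 29 arrays) or of non-carrier littermates without it (30 arrays). The serum donors were F1 progeny of C57BL/6 and SJL mice. The labels mark 53 arrays with 9 weeks and the other 6 with 10 weeks, read here as the age of the serum donors, which the labels do not state outright. The titles fall into 9 series of names and numbers, each treated as a run of the assay, and the runs are called motorneuron, HB9MNs, A to F, and 10-week. A run held 4 to 11 arrays and both kinds of serum.

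Values are log2 intensities of Affymetrix mouse exon arrays. The median intensity of an array was 151 to 183 with carrier serum and 153 to 177 with non-carrier serum. The labels name serum of a mutant mouse for each carrier array, but no separate animal or culture, so p-values measure the spread between arrays. An embryoid body is a mixture, and fewer cells of a type and less RNA per cell cannot be told apart in these samples. Probes differ between genes, so no gene's level is set against that of another gene. Within the runs, 2 arrays correlated less with their own run than the rest by Grubbs' test. One was in run C with non-carrier serum (mean r 0.990) and the other in run E with carrier serum (mean r 0.979).

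Motor neurons depend on factors released by muscle, glia and other neurons. GDNF binds the GPI-anchored chain GFRA1 and signals through the RET tyrosine kinase. BDNF acts through the tyrosine kinase TrkB, the product of Ntrk2, whereas neurotrophin-3 acts mainly through TrkC, the product of Ntrk3, and p75, the product of Ngfr, binds all neurotrophins. CNTF binds CNTFR, which signals with LIFR and gp130 through JAK and STAT proteins, and LIF binds LIFR and gp130 without CNTFR. IGF1R is a tyrosine kinase for IGF1 and IGF2. These receptors feed the PI3K-AKT and MAP kinase routes that support survival and axon growth.

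The 5′ flank is shown for 3 of these genes. Ntrk2 was chosen as the only member called with serum, a call kept in 12 of 22 alternative fits. Gdnf and Bdnf were chosen because they moved together between arrays. Each line holds the 250 bases before an annotated start in RefSeq (build GRCm38.p6, plus strand, 5′ to 3′), and capitals mark the core TGACG of the cAMP response element on either strand.
Ntrk2, chr13:58806319-58806568: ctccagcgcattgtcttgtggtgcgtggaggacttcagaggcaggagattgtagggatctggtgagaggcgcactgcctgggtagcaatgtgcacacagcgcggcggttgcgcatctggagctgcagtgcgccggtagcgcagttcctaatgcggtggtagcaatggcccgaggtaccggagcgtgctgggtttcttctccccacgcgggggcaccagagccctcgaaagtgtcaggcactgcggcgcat
Gdnf, chr15:7809798-7810047: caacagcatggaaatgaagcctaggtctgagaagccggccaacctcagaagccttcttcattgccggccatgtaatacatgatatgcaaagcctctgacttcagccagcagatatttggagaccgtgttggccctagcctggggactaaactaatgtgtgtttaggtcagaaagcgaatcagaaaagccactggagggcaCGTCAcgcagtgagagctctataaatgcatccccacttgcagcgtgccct
Bdnf, chr2:109692186-109692435: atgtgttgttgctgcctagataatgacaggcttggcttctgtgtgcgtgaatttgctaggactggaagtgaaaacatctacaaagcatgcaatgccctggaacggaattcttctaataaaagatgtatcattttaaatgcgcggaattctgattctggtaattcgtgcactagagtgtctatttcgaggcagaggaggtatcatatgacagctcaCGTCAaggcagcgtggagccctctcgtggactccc
The Gdnf and Bdnf windows each held 1 core, in the reverse orientation, which began 50 bases before the start in Gdnf and 35 bases before it in Bdnf. Both windows were chosen because they held it, among 2 Gdnf and 7 Bdnf windows. No such letters lay in the Ntrk2 window. The RefSeq table held 21 windows for 8 of the 10 members, and 2 of the 21 held the core, beside 17.8% of all 32851 windows of this length. The full element TGACGTCA was in none of the 21 windows and in 1.55% of all windows. A match of letters is a description of the sequence and not a binding site.

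The comparison of carrier with non-carrier serum asks whether serum of presymptomatic SOD1 mice moved the expression of these genes. Ntrk2 was lower with carrier serum by 5.30%, and it was the only member of 10 that passed the test across all genes (limma with the run as a block, adjusted p = 0.0313). In that test 2.33% of all genes were called in either direction, and 1.65% were called lower. Changes of the 10 members ran from -0.079 for Ntrk2 to 0.066 for Lifr on the log2 scale. The median size of change was 0.033 over the members and 0.039 over all genes, and the median signed change was 0.017 and 0.016. A change lower than 0 was seen for 4 of 10 members and for 38.9% of all genes.

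**Figure D1:**
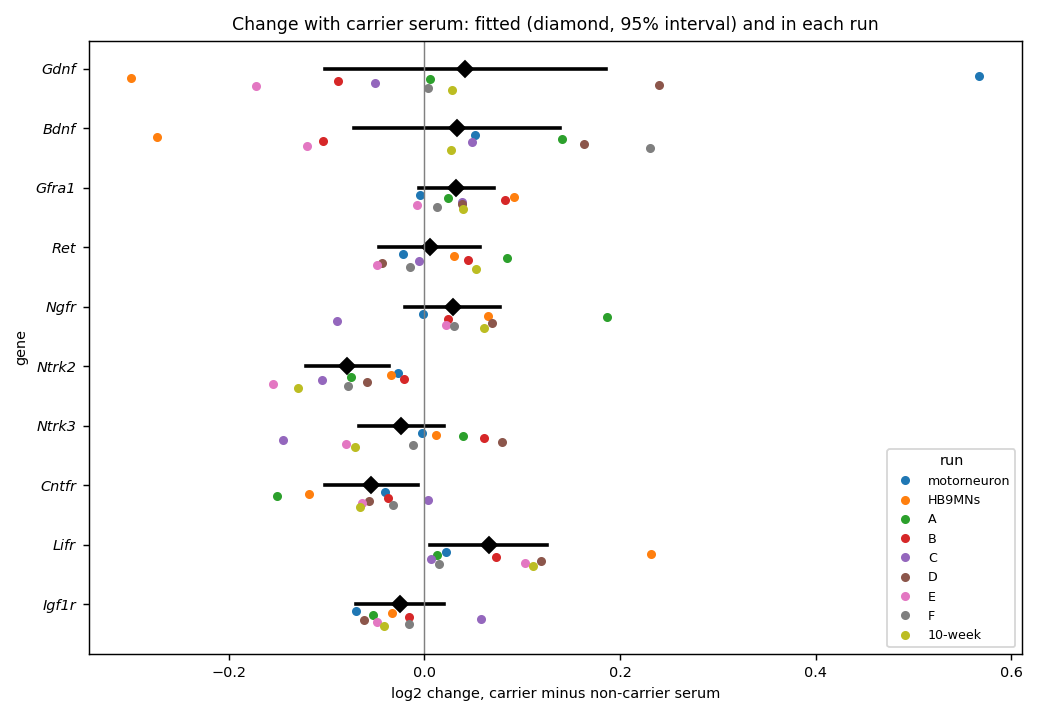
Change of each gene between kinds of serum (x axis, log2 intensity with carrier minus non-carrier serum). Diamonds and bars are the limma estimate and its 95% interval over 59 arrays, and coloured points are the differences of means within each of 9 runs. All 9 points of Ntrk2 lie below 0 and all 9 of Lifr above 0, whereas the points of Gdnf spread from -0.30 to 0.57.

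Ntrk2 encodes TrkB, the receptor through which BDNF supports motor neurons. The log2 intensity of Ntrk2 was 9.06 at the lowest, 9.85 at the median and 10.34 at the highest with carrier serum, and 9.07, 9.93 and 10.42 with non-carrier serum. The ranges of the kinds of serum overlapped almost wholly, since the level differed more between runs than between sera. Within runs, Ntrk2 was lower with carrier serum in 9 of 9, by 0.021 on the log2 scale in run B at the least and by 0.15 in run E at the most. The fitted change was -0.079 (SE 0.021, 95% interval -0.12 to -0.036). In run A the carrier arrays had log2 intensities of 10.27, 10.35 and 10.32, and the non-carrier arrays had 10.35, 10.42 and 10.39, so that the highest carrier array (10.345) lay just under the lowest non-carrier array (10.347). In run F the values were 9.84, 9.85 and 9.90 with carrier serum, and 9.96, 9.92 and 9.95 with non-carrier serum. At 10 weeks they were 9.42, 9.50 and 9.49 with carrier serum, and 9.57, 9.58 and 9.65 with non-carrier serum. These were the 3 runs in which no carrier array reached the lowest non-carrier array, and in the other 6 runs the arrays overlapped. Run C, with 11 arrays, may hold more than 1 batch of embryoid bodies. When it was parted into 2 by the order of the sample list, the arrays did not overlap in either part, with carrier values up to 10.20 against non-carrier values from 10.22 in one, and up to 10.07 against 10.15 and above in the other. With the parts as separate blocks the fitted Ntrk2 change was -0.080 (adjusted p = 0.0210), and 3.30% of all genes were called.

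The size of the Ntrk2 change was steady when single runs were left out (-0.085 to -0.070), but its call was not. It was lost without run A, C, D, E, F or the 10-week run (adjusted p 0.0560 to 0.116), and kept without the motorneuron run, HB9MNs or run B. With quantile normalization of the arrays the change was -0.066 (adjusted p = 0.0841), and without the run as a block it was -0.052 (adjusted p = 0.995). Run E held the carrier array of low correlation, whose Ntrk2 value of 9.38 was the lowest of that run. Without the 2 arrays of low correlation Ntrk2 stayed called (adjusted p = 0.0402). In the motorneuron run, the first non-carrier array stood at 9.44 and the other 3 at 9.07, 9.11 and 9.09. Without that array the difference in this run was 0.061 in the other direction, so that 8 of 9 runs were lower, while the fitted change over all runs was -0.070 (adjusted p = 0.0269).

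Lifr and Cntfr, the chains of the CNTF receptor complex, differed in opposite directions, each short of the threshold. Both had an unadjusted p under 0.05, as did 20.7% of all genes. Lifr log2 intensities ran from 8.58 over a median of 9.10 to 9.49 with carrier serum, and from 8.32 over 9.03 to 9.45 with non-carrier serum. Its mean was higher with carrier serum in 9 of 9 runs, and arrays of the kinds of serum did not overlap in HB9MNs, B, D and the 10-week run. With run C parted, Lifr was higher by 0.095 in one part and differed by -0.044 in the other. In HB9MNs, Lifr stood at 8.68 and 8.77 with carrier serum, and at 8.43 and 8.56 with non-carrier serum. The fitted change of Lifr was 0.066 (SE 0.030, p = 0.0310, limma adjusted p = 0.199). A mean on the same side in all 9 runs was found for 2 members, Ntrk2 and Lifr, and for 1.76% of all genes. Cntfr, the binding chain for CNTF, ran from 10.47 over 10.72 to 11.02 with carrier serum, and from 10.59 over 10.76 to 11.11 with non-carrier serum. It was lower with carrier serum in 8 of 9 runs, with run C as the exception. Its fitted change was -0.054 (SE 0.024, p = 0.0258, limma adjusted p = 0.187). When limma weighted each array by its own scatter, Cntfr (-0.053, adjusted p = 0.0398), Lifr (0.072, adjusted p = 0.0271) and Gfra1 (0.044, adjusted p = 0.0454) passed as well as Ntrk2, in a fit that called 2803 of all genes.

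The remaining members gave no call. Gdnf differed by 0.042 (SE 0.071, adjusted p = 0.751), and Bdnf by 0.034 (SE 0.053, adjusted p = 0.727). These 2 factors had the widest intervals of the 10, from -0.10 to 0.19 for Gdnf and from -0.072 to 0.14 for Bdnf. The Gdnf estimate hung on the motorneuron run, in which carrier arrays had log2 intensities of 8.65, 8.09 and 7.76, and non-carrier arrays had 8.08, 7.94, 7.36 and 7.03. Carrier arrays lay higher on average there but overlapped the others, and without that run the Gdnf change was -0.028. Gfra1, the GDNF-binding chain, changed by 0.033 (SE 0.019, adjusted p = 0.318), and Ret, its signalling partner, by 0.0053 (SE 0.026, adjusted p = 0.918). Their 95% intervals were -0.0059 to 0.071 for Gfra1 and -0.046 to 0.057 for Ret. Ngfr, the p75 receptor, changed by 0.029 (SE 0.024, adjusted p = 0.483). Ntrk3, which encodes TrkC, changed by -0.023 (SE 0.022, adjusted p = 0.531), unlike its relative Ntrk2 in that 5 of 9 runs were lower and 4 higher. The difference between the changes of Ntrk2 and Ntrk3 was not tested. Igf1r changed by -0.025 (SE 0.022, adjusted p = 0.522) and was lower in 8 of 9 runs, run C again being the exception.

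Whether the change with serum differed between runs was asked by the interaction of run and serum. None of the 10 members passed this limma test (smallest unadjusted p 0.119, Ntrk3), beside 0.127% of all genes. The unadjusted p was under 0.05 for 0 of 10 members and for 1557 of 19613 genes. At that share of all genes, 0 of 10 does not set the members apart.

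Ligands, receptors and binding proteins of the same families, and the adaptors, kinases and target genes downstream of them, made up 68 further genes. Of these 0 rose and 1 fell, which is 1.47% and near the 2.33% of all genes. The one that fell was Insr, the insulin receptor and closest relative of Igf1r, with a change of -0.070 (SE 0.018, limma adjusted p = 0.0259) and a lower mean in 8 of 9 runs. An unadjusted p under 0.05 was reached by 15 of the 68, near the share of all genes, 20.7%. Changes ran from -0.17 for Igfbp2, an IGF binding protein (adjusted p = 0.101), to 0.13 for Ctf1, cardiotrophin (adjusted p = 0.296). By family, 0 of 9 genes of the GDNF ligands and receptors, 1 of 10 neurotrophins and receptors, 0 of 10 genes of the CNTF and LIF family and 1 of 12 IGF genes were called, the members included, beside the same 2.33% of all genes. No ligand of the members outside the 10 was called, nor was gp130. Nrtn, a factor related to GDNF that signals through RET, differed by 0.10 (p = 0.0476, limma adjusted p = 0.237) and Ntf5, a second ligand of TrkB, by 0.090 (p = 0.0438, limma adjusted p = 0.228). Ntf3, the TrkC ligand, differed by -0.063 (adjusted p = 0.490), Il6st, which encodes gp130, by 0.0024 (adjusted p = 0.965), Igf1 by 0.0082 (adjusted p = 0.877) and Igf2 by -0.043 (adjusted p = 0.467). None of 23 shared adaptors and kinases and none of 14 target and feedback genes was called by limma. Of the adaptors and kinases 11 changed below 0 and 12 above (median 0.00028). Of the target and feedback genes 11 changed below 0 and 3 above (median -0.041), and these splits were not tested. On the list of adaptors and kinases Stat3, which LIFR activates, was lower in 9 of 9 runs (-0.048, adjusted p = 0.135). Irs1, the adaptor of IGF1R, was lower in 8 of 9 (-0.080, adjusted p = 0.0985). Both genes were chosen after their values were seen.

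Genes that mark cell types were read beside these results. In the same limma test 2.33% of all genes were called. In lists this short, 1 call or none is not read as a result about a cell type. Of 9 motor neuron markers measured, 1 rose, the choline transporter Slc5a7 (0.15, adjusted p = 0.0410), and the mean log2 level of the list was 8.57 to 8.98 with carrier serum and 8.52 to 8.97 with non-carrier serum. Of 6 astrocyte and radial glia markers, 1 fell, the glutamate transporter Slc1a2 (-0.068, adjusted p = 0.0307), with list levels of 7.70 to 8.30 and of 7.67 to 8.25. The other 5, among them Gfap (0.033, adjusted p = 0.583) and Aqp4 (0.065, adjusted p = 0.273), were not called. Astrocytes as well as neurons make TrkB, and the part of this cell type in the Ntrk2 result was not tested. Of 7 progenitor markers 0 were called, with list levels of 8.33 to 8.76 and of 8.39 to 8.80. Olig2 and Lhx3, which mark motor neuron progenitors and motor neurons, had changes of -0.085 (adjusted p = 0.0936) and -0.086 (adjusted p = 0.105). Mnx1, which encodes HB9, changed by -0.035 (adjusted p = 0.588) and Isl1 by 0.053 (adjusted p = 0.114). With the levels of these 4 genes in the model beside the run, the Ntrk2 change was -0.036 (adjusted p = 0.169), and Gdnf (0.20, adjusted p = 0.0258) and Gfra1 (0.057, adjusted p = 0.0308) were called instead, in a fit that called 6122 of all genes. Lists for interneurons, neural crest, pluripotent cells, mesenchyme, and endothelium and blood had 0 called genes each.

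Differences between runs of embryoid bodies were larger than those between sera. The level differed between runs for 9 of 10 members (limma, serum in the model), as it did for 94.0% of all genes. The median share of variance that lay between runs was 73.6% over the members and 62.5% over all genes. Ntrk2 and Ntrk3 differed the most among the members when set against the spread within runs. Gfra1 was the one member not called (limma adjusted p = 0.393), but after quantile normalization of the arrays all 10 members were called between runs.

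**Figure D2:**
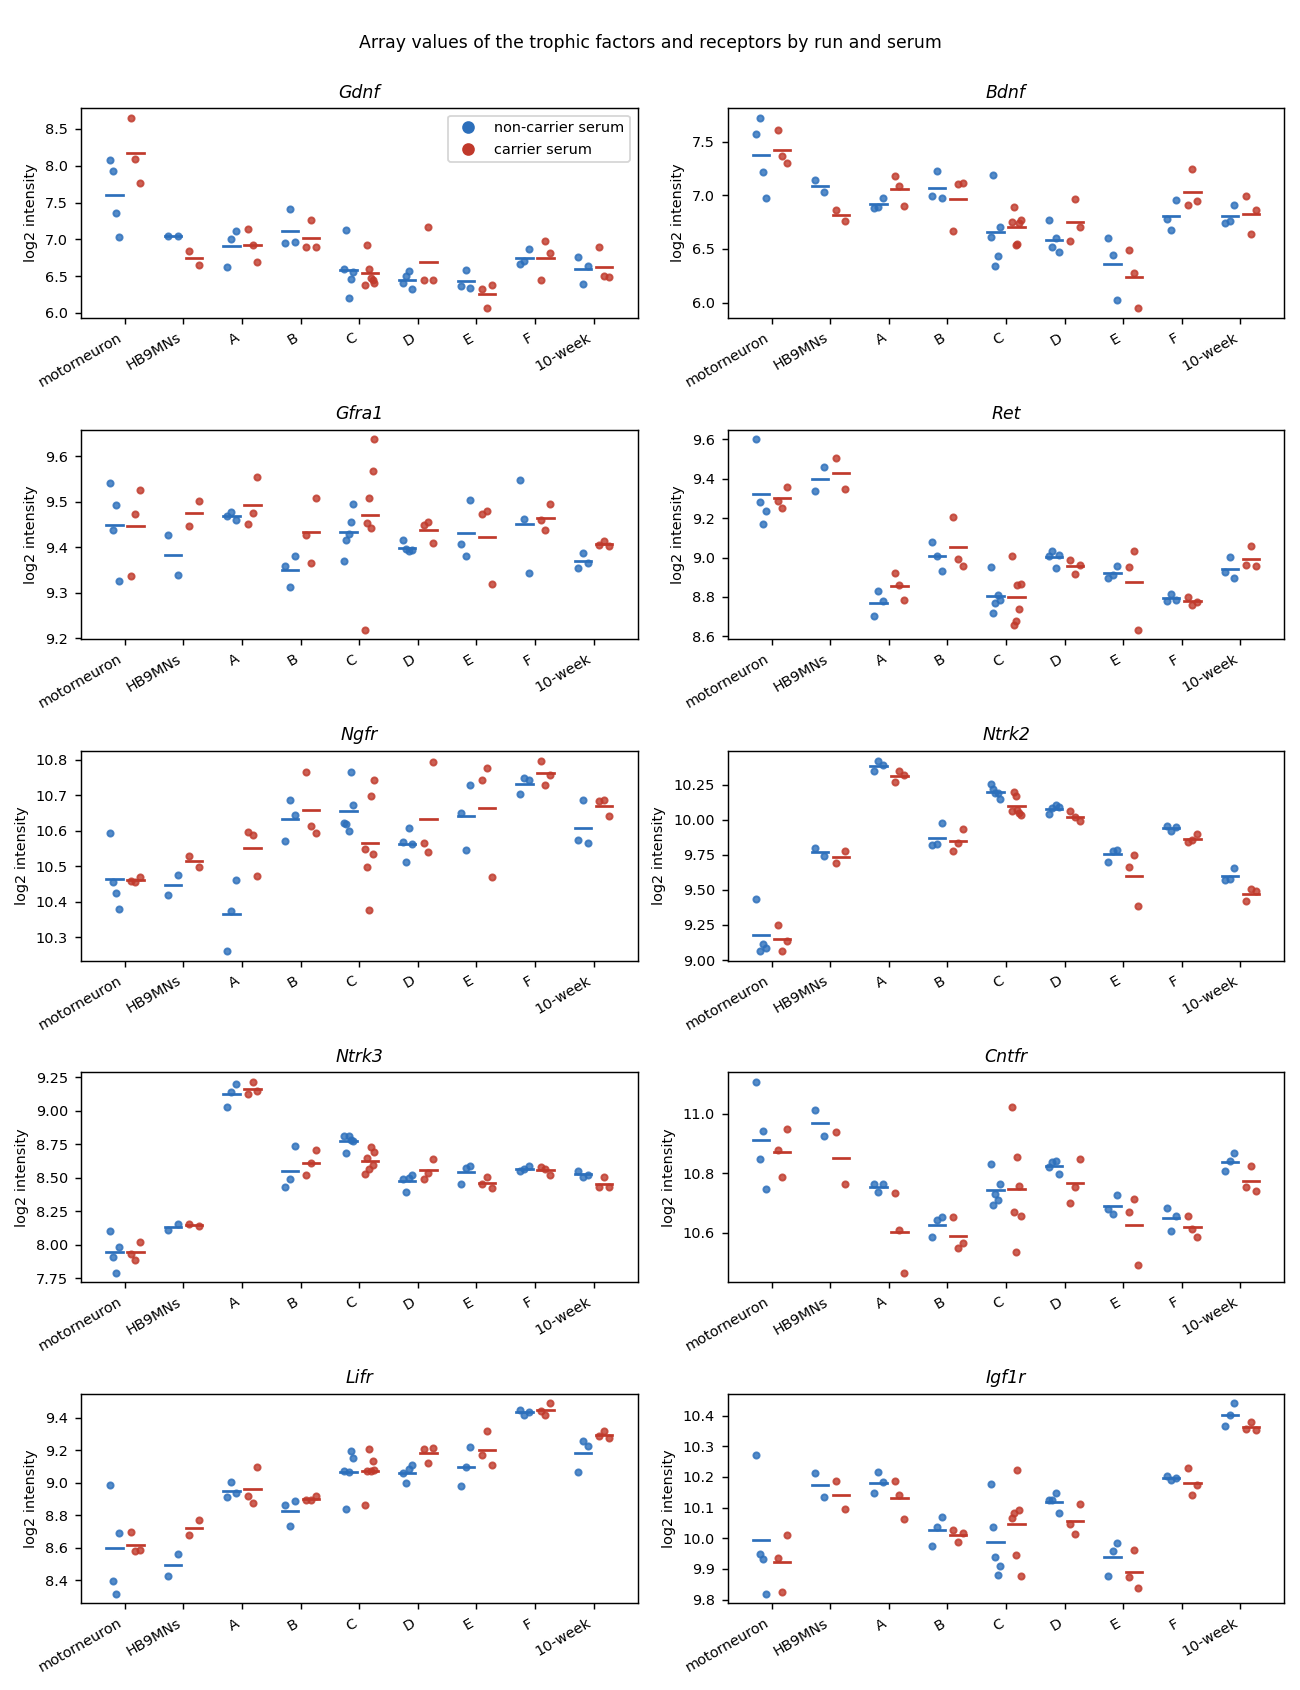
Log2 intensity (y axis) of each gene in all 59 arrays, by run (x axis) and serum (blue non-carrier, red carrier); each dot is 1 array and each line the mean of its kind of serum in the run. The y axes differ between genes and do not start at 0. Ntrk2 and Ntrk3 are lowest in the motorneuron run and highest in run A, while Gfra1 keeps run means of 9.39 to 9.48.

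Ntrk2 had its lowest run mean in the motorneuron run (9.16 ± 0.14, SD, n = 7) and its highest in run A (10.35 ± 0.054, SD, n = 6), a 2.27-fold range. In ascending order the runs were motorneuron, 10-week (9.54), E (9.68), HB9MNs (9.75), B (9.86), F (9.90), D (10.06), C (10.14) and A. Of the 8 neighbouring pairs in this order, arrays were apart in 2, between F and D and between C and A, and the other 6 pairs overlapped. The widest gap of run means was 0.37, between the motorneuron and 10-week runs. These runs overlapped only through the first non-carrier motorneuron array at 9.44, against a 10-week low of 9.42. The remaining motorneuron arrays reached 9.25 at most. Ntrk3 had a 2.29-fold range, also from the motorneuron run (7.95 ± 0.10, SD, n = 7) to run A (9.14 ± 0.065, SD, n = 6). HB9MNs followed at 8.14, then 6 runs lay close together from the 10-week run at 8.49 to run C at 8.69. Neighbours were apart in 3 of 8 pairs, at HB9MNs on both sides and between C and A. Between runs lay 94.6% of the variance of Ntrk2 and 94.5% of that of Ntrk3. Over the 9 run means the Trk receptors had a Pearson r of 0.85 and a Spearman rho of 0.88, which did not pass adjustment over 45 pairs of members (exact permutation tests, adjusted p = 0.0658 and 0.0692). Without the 2 runs farthest from the median of Ntrk2, r was 0.46. Ngfr, the third neurotrophin receptor, had a narrower range, from 10.46 in run A to 10.75 in run F (1.22-fold), and neighbours overlapped in 8 of 8 pairs.

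Ntf3, the ligand of TrkC, ran from 10.13 in run B to 11.31 in run C. Its lowest run was thus not that of Ntrk3, whose mean in run B was 8.58.

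**Figure D3:**
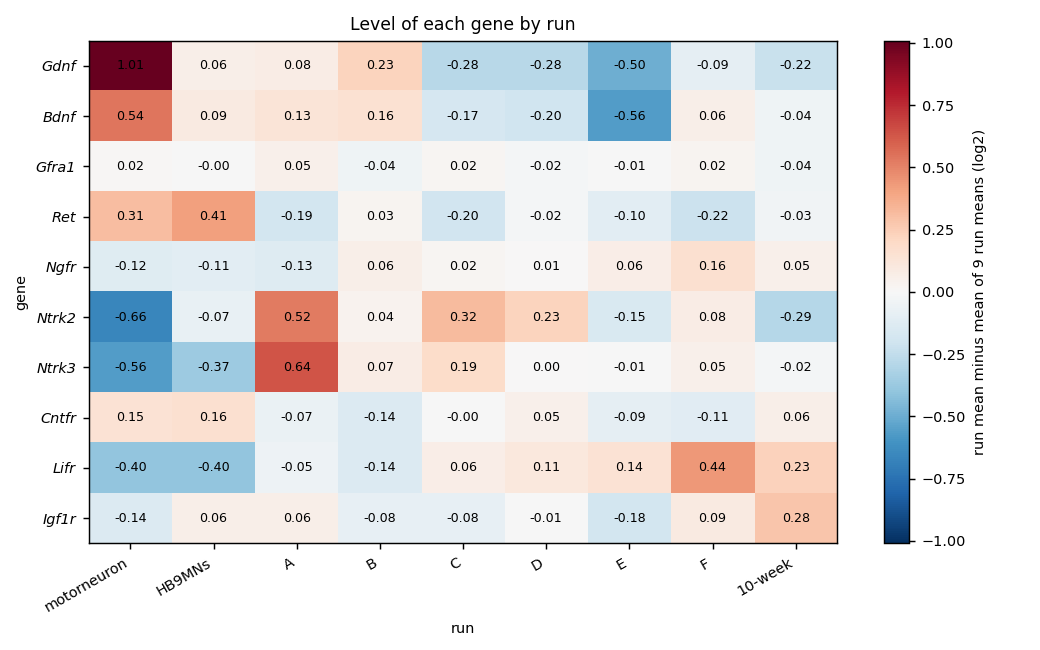
Run mean of each gene (rows) in each run (columns) as the difference from the mean of its 9 run means, on the log2 scale (red higher, blue lower; the number in each cell is the difference). Gdnf and Bdnf are highest in the motorneuron run and lowest in run E, whereas Ntrk2 and Ntrk3 are lowest in the motorneuron run, and Gfra1 is near 0 throughout.

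Gdnf and Bdnf, the secreted factors, followed one another. Gdnf had its highest run mean in the motorneuron run (7.85 ± 0.53, SD, n = 7) and its lowest in run E (6.34 ± 0.17, SD, n = 6), a 2.84-fold range. Bdnf was highest and lowest in the same runs, at 7.40 ± 0.26 (SD, n = 7) and 6.30 ± 0.27 (SD, n = 6), a 2.14-fold range. Next to the lowest run, both stood low in D and C, at 6.55 and 6.56 for Gdnf and 6.66 and 6.69 for Bdnf, and both were second highest in run B, at 7.07 and 7.01. The ranks of the 9 runs were the same for both genes (Spearman rho 1.0, exact permutation p = 5.5e-06, adjusted over 45 pairs 0.000248). Pearson's r was 0.92 (exact permutation p = 0.000226, adjusted p = 0.0102), and 0.93 without the 2 runs farthest from the Gdnf median. It was the only pair of 45 that passed over run means. Within runs and sera, over 59 arrays, r was 0.70 (p = 1e-05, the smallest that 100000 permutations can give, adjusted p = 0.00045) and rho 0.64 (adjusted p = 0.000675), with r = 0.63 without the 2 farthest arrays.

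The level of an array as a whole moved with both factors. Array medians were 164 to 183 in the motorneuron run and 151 to 158 in run E. Within runs and sera the array median correlated with Gdnf (r = 0.72, rho = 0.60, permutation tests, adjusted p over 10 genes 0.0002 and 0.0008) and with Bdnf (r = 0.75, rho = 0.73, adjusted p = 0.0002 and 0.0001), and without the 2 farthest arrays r was 0.63 and 0.65. Over the 9 run means r was 0.91 for Gdnf and 0.86 for Bdnf (exact permutation tests, adjusted p = 0.0324 for both), rho was 0.70 for both (adjusted p = 0.216), and r fell to 0.24 and 0.56 without the 2 farthest runs, so that the relation over runs rests on those runs. None of the other 8 members passed this test at either level. After quantile normalization of the arrays, Gdnf kept a 2.44-fold and Bdnf a 1.76-fold range between the same runs, with r = 0.87 over the run means. The part of the array median in the relation of Gdnf to Bdnf was not tested further.

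**Figure D4:**
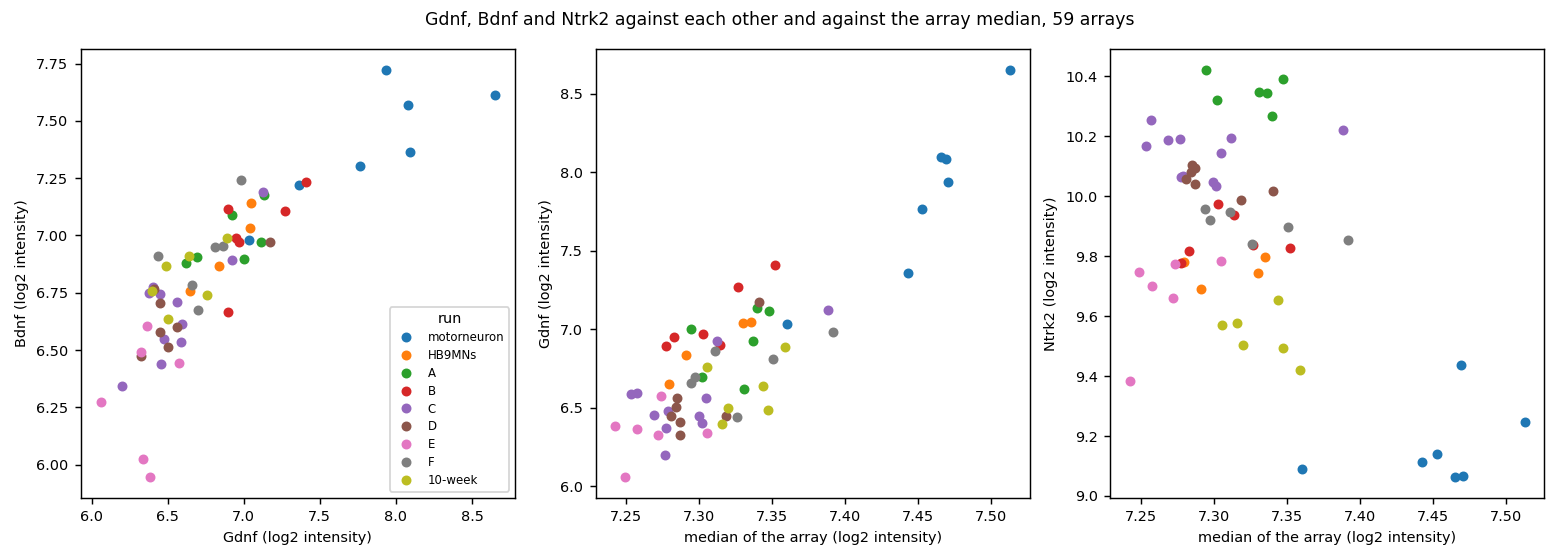
Left, Bdnf against Gdnf; middle, Gdnf against the median of all genes on the array; right, Ntrk2 against that median. All axes are log2 intensities, each dot is 1 of 59 arrays, and colours are runs. Gdnf rises with Bdnf and with the array median, and the motorneuron run lies apart at high Gdnf and low Ntrk2.

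Ret and Gfra1, which together form the GDNF receptor, differed in how far they varied. Ret ran from 8.79 in run F to 9.41 in HB9MNs (1.55-fold), with 83.4% of its variance between runs, and was also high in the motorneuron run at 9.31. Gfra1 ran from 9.39 to 9.48 (1.07-fold), with 15.7% between runs. After quantile normalization of the arrays these shares were 84.7% for Ret and 26.9% for Gfra1. The largest spread of Gfra1 within a run was in run C, where arrays ran from 9.22 to 9.64. Lifr rose from 8.61 in the motorneuron run and in HB9MNs to 9.44 in run F (1.78-fold, 83.6% between runs), and its arrays were apart in 1 of 8 neighbouring pairs. Cntfr ranged from 10.61 in run B to 10.91 in HB9MNs (1.23-fold, 56.8% between runs). Igf1r was highest in the 10-week run (10.38 ± 0.034, SD, n = 6), apart from run F below it at 10.19 ± 0.030 (SD, n = 6), and lowest in run E at 9.92. The 10-week run alone had that age label, so run and age cannot be told apart there. Without it, the share of Igf1r variance between runs was 54.6% in place of 73.9%.

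Some members also moved together within runs, and most pairs did not pass. Of 45 pairs, whose median r was 0.22, 9 passed by Pearson's r and 5 by Spearman's rho over 59 arrays after the means of run and serum were removed (100000 permutations within run and serum). Besides Gdnf with Bdnf, the 4 that passed by both were Cntfr with Igf1r (r = 0.70, rho = 0.71), Ret with Cntfr (r = 0.70, rho = 0.54), Ret with Ngfr (r = 0.61, rho = 0.62) and Ngfr with Cntfr (r = 0.50, rho = 0.50), with adjusted p from 0.000675 to 0.0389 by r and from 0.000675 to 0.0121 by rho. Without the 2 farthest arrays their r was 0.77, 0.63, 0.52 and 0.38. Ntrk2 passed with Lifr (r = 0.55) and with Igf1r (r = 0.53) by r, but not by rho (0.41 and 0.39, adjusted p = 0.0723 and 0.0742), and fell to 0.37 and 0.36 without the 2 farthest arrays.

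Genes whose values followed each member most closely within runs and sera, by Pearson's r over 59 arrays, are given as a description. For Gdnf they included Asgr2 (0.86) and Pvrl4 (0.85), and for Bdnf they were Mst1 (0.88), Bpifb3 (0.86) and Psen2 (0.85). For Gfra1 they were Uchl1 (0.74), Asb13 (0.71) and Htra2 (0.70), and for Ret Sh3pxd2b (0.86), Crmp1 (0.85) and Coro2b (0.85). Ntrk2 went with Apcdd1 (0.77), Dner (0.73) and Prex1 (0.72), none of which was called with serum (adjusted p 0.251 to 0.709). Ntrk3 went with St3gal1 (0.75), Megf11 (0.71) and Prkca (0.68), of which Megf11 fell with carrier serum (-0.087, limma adjusted p = 0.0360). Ngfr went with Pacs2 (0.80), Pip5k1c (0.80) and Rapgef1 (0.79). Cntfr had the closest companions, Pom121 (0.94), Prrc2a (0.91) and Vamp2 (0.91). Lifr went with Serpine2 (0.79), Plcb1 (0.77) and Chodl (0.77), of which Chodl rose with carrier serum (0.13, limma adjusted p = 0.0165). Igf1r went with Cacna2d2 (0.89), Gm15800 (0.87) and Triobp (0.86).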

How the data were processed

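RNA of embryoid bodies was measured on 59 Affymetrix mouse exon arrays. The authors removed outlying arrays, normalized the rest together with RMA (the submitters' processing notes name RMA and Affymetrix Expression Console), averaged the exons of each gene and deposited linear intensity values for 19613 gene symbols. The genome build and tool versions are not given in the sources used here, nor is the scale on which exons were averaged. No column fell outside the labelled samples (0 such columns).

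Values were taken to log2 with a pseudocount of 0, and no gene was filtered out. A linear model of serum and run was fitted to each gene in limma 3.58.1 (R 4.3.3), and two-sided p-values of serum were adjusted by Benjamini-Hochberg across the 19613 genes and called under 0.05. F tests of limma served for differences between runs and for the interaction of run and serum. The labels name no batch, and runs stand for batches. Only intensity, not depth, is known for arrays, and their number limits the precision. Correlations were tested with all 362880 permutations of 9 run means or with 100000 permutations within run and serum, two-sided. The limma steps were tested on simulated data. Named genes were the 10 members, called genes and partners from the pathway lists, 4 motor neuron genes, and the 3 genes closest to each member, of which 1 is not reported here; Stat3, Irs1, Igfbp2, Ctf1, Gfap and Aqp4 were chosen after their values were seen. Older symbols were also looked up, and Cntf, Irs2, Slc18a3, Nkx6-1, Slc1a3, Hba-a1 and Hbb-bh1 were not analysed here. The members and lists were chosen with earlier results of these data known. Alternatives covered the block, normalization, filter, pseudocount, variance model, array weights and arrays left out.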

Additional observations from a re-analysis of the deposited data

Results flagged for a closer look

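Groups of 4 to 6 arrays of 1 run and serum were examined for each of the 10 genes. This gave 40 sets of values, in which the same arrays recur from gene to gene. In 2 of the 40 sets an array lay far from the others of its group. Chance gives about 1 in 20, and 2 of 40 is no more than that. In the motorneuron run with non-carrier serum, the first array had an Ntrk2 log2 intensity of 9.44, above 9.11 for the next array and 9.07 for the lowest. In run D with non-carrier serum, 1 array had a Gfra1 log2 intensity of 9.41, above 9.39 for the others, a gap smaller than the within-run SD of 0.075.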

How the results depend on the processing

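The Ntrk2 change was below 0 under 22 of 22 alternatives and called in 12. Without the run as a block no member and no gene was called by limma (0 members, 0% of genes, 805 genes at an unadjusted p under 0.05), with Ntrk2 at -0.052, Ret at -0.012 and Ntrk3 at 0.0026. With 4 motor neuron genes beside the run, 2 members and 31.2% of genes were called, with Ntrk2 at -0.036, Ntrk3 at 0.016 and Igf1r at 0.010. With these genes in place of the run, 0 members and 0.270% of genes were called, with Ntrk2 at -0.0028, Ret at -0.060 and Ntrk3 at 0.064. Quantile normalization gave 0 members called with serum and Ntrk2 at -0.066. Centring arrays on their median turned Ret to -0.0020. Array weights gave 4 members and 14.3% of genes, leaving out the 2 arrays of low correlation gave 3.65%, and testing only the genes above the median level gave 6.68% of those, beside 2.33% in the fit reported. Without motorneuron non-carrier replicate 1, chosen after seeing the data, 3.71% of genes were called and Ntrk2 stayed at -0.070.

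Leaving out 1 run at a time gave 0 to 1 called members, 0.540% to 8.16% of genes called (fewest without run D, most without run C), and 0 (without run C) to 54 genes (without the motorneuron run) in the interaction, where 25 were called with all runs. Ntrk2 ranged from -0.085 to -0.070, Gdnf from -0.028 to 0.067, Ret from -0.0037 to 0.012 (0.015 without that 1 array) and Ntrk3 from -0.037 to 0.0044. Gdnf turned without the motorneuron run, Ret without run A or the 10-week run, and Ntrk3 without run C. The cause of these shifts was not tested.

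Replicate numbers are shared by carrier and non-carrier arrays in 3 runs. Over 8 such pairs the correlation of deviations was -0.13 to 0.33 and over 0.1 in 1. Deviations were taken from means of only 2 to 4 arrays. With 2 arrays of each serum, the HB9MNs pairs A and B give the same value by construction (0.063). Whether the numbers pair the arrays can therefore not be decided here. With the replicate block, 2.62% of genes and 1 member were called, with Ntrk2 at an adjusted p of 0.00989.

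Of all member changes under alternatives, 192 kept direction and side of the threshold, 11 reversed, 10 lost and 5 gained a call.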
